A study of Arabidopsis thaliana with 3 samples.

Results

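A second transcription start window just inside the coding sequence leaves nearly the whole protein-coding frame downstream of it. In wild-type Arabidopsis seedlings, 219 such windows of 208 genes were recorded, among 11008 second windows of 6814 genes (1.99%). A window was taken where the coding length left downstream was at least 0.9 of the full coding length but less than 1, and where the type given in the deposited table was not PPID, a label that the sources used here do not explain. Each window of a gene was counted once, so that the 291 entries meeting these conditions came down to 219 windows. A further 571 entries at the same distance carried the PPID label and were left out.

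The windows were mapped by PEAT, a method that reads the 5′ ends of RNA molecules as paired ends to locate transcription start sites. Total RNA came from whole wild-type (WT) seedlings of the Col-0 accession, 10 days old. There was 1 library from white light, 1 after 45 min and 1 after 90 min of far-red-enriched light, with no mutant or transgene in any of them. With 1 library per condition there were no replicates, so every test below compares libraries and not conditions.

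In plant genes, transcription usually begins upstream of the start codon, in a promoter that can hold several start positions. When it begins downstream of the start codon, the first AUG is missing from the RNA, and the ribosome may begin at a later AUG. If that AUG lies in the same frame, the protein lacks a stretch of its N-terminus, where signals for targeting to chloroplasts, mitochondria or the secretory pathway are usually found. Far-red light, which leaves let through while they absorb red, inactivates phytochromes and sets off the shade response.

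Counted over 1 transcript per gene, the white light library had 3440656 reads in the table, the 45 min library 4373900 and the 90 min library 4125024. Of 18 shade-response genes listed for this work, 7 were in the table and their summed level, in reads per 1000000 table reads (RPM), was 348, 2156 and 1766 in the white light, 45 min and 90 min libraries. None of these 7 had a window near the start codon, with or without the PPID label. Of the tissue markers, 1 of 4 for green tissue was present (CAB3, a light-harvesting protein, at 4935, 5222 and 4811 RPM). For root, 2 of 3 were present, and they differed in direction. PYK10, a root β-glucosidase, was at 9884, 6834 and 7969 RPM, and TUB1, a tubulin, at 68.9, 70.2 and 119 RPM.

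The coding bases lost at the 5′ end, taken as the full minus the remaining coding length, had a median of 66, with quartiles of 35 and 102.5. They ran from 2 in AT1G64142 and in AN3, a transcriptional coactivator of leaf growth, to 333 in FIP1[V], a polyadenylation factor. The median full coding length was 1311 bases, against 1365 over all second windows, and ranged from 63 to 5715. Losses of 1 to 30 bases were found in 49 windows and losses of 31 to 60 in another 49. The bin of 61 to 90 bases held 57 windows, that of 91 to 120 held 24, and 40 windows lost more. The limits of the rule cut through a continuous range. Just inside its lower limit lay AT4G18230 with 90.03% of the coding length left, and just outside it FHY3, a transcription factor of phytochrome A signalling, with 89.96%. At the upper limit, AT5G04860 kept 99.7%, and 2 windows that kept the full length, in AT1G02410 and AT5G43822, fell outside.

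The number of bases lost was a multiple of 3 in 87 windows (39.7%, 95% Wilson interval 33.5 to 46.3), which keeps the codon phase. It left 1 base over in 63 windows and 2 in 69. Among the other 10789 second windows 34.9% kept the phase (34.0 to 35.8), and among the 427 windows with the PPID label near the start codon 36.8% did (32.3 to 41.4). The interval of the windows near the start codon contains both of these shares. The share in phase was 22 of 49 among windows losing 1 to 30 bases, 20 of 57 for 61 to 90 bases, and 17 of 40 for losses above 120. From which base of a window the remaining length was counted is not given in the sources used here, so a phase refers to the length as deposited. It does not give the frame of translation, which depends on the AUG used, and that was not determined.

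**Figure D1:**
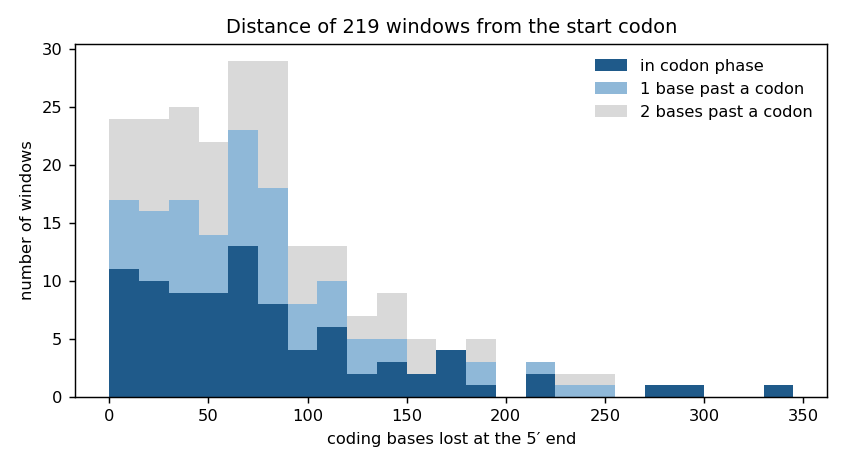
Number of windows (vertical axis) by coding bases lost at the 5′ end (horizontal axis, bins of 15 bases) for the 219 windows near the start codon. Colours stack the windows by the remainder after division by 3; the 87 windows in codon phase are spread over the whole range, and the median loss is 66 bases.

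Pfam domains were listed for 167 of the 219 windows and none for 52 (23.7%, against 43.0% over all second windows). Every listed domain was kept at an overlap of 100 in 140 of the 167 (83.8%), against 56.9% of the 6275 windows with overlap values in the whole table. A window near the start codon leaves nearly all of the coding sequence, so this difference follows from the rule. In the other 27 windows a domain was cut at its N-terminal side. No overlap below 60 was listed in the whole table, and whether domains with lower overlap were left out is not given in the sources used here. These counts therefore hold for listed domains alone. The deepest listed cut was to 67, in the late exocytosis domain of HYP1, a membrane protein. The ERGIC domain of AT1G36050 kept 76, 1 of the mTERF domains of pde191, an organelle protein, kept 84, and the ubiquitin fusion domain of UFD1 kept 89. The SPX domain, which senses inositol phosphates, kept 91 in PHO1, which loads phosphate into the xylem, and 86 in AT2G03240. The most repeated domains were the mitochondrial carrier and the triose-phosphate transporter domain, each in 4 genes. The neutral invertase, Dof zinc finger, calmodulin-binding and amino acid transporter domains were each in 3.

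Second windows near the start codon summed to 14090 reads for white light, 18387 for 45 min and 19813 for 90 min. The first windows of the same transcripts summed to 37736, 37091 and 41241. Over the 3 libraries together, a second window near the start codon had a median of 85 reads, against 92 for all second windows, and a range of 12 to 5458. The share of a window is the percentage of its own reads and those of the first window that fell in it. Where a library had at least 20 reads in both windows together, the median share was 26.2% in white light (189 windows), 28.6% at 45 min (195 windows) and 30.6% at 90 min (199 windows). The medians of the other second windows were 30.3%, 29.9% and 34.6%. White light had 57 windows without a second-window read (26.0%), 45 min had 45 (20.5%) and 90 min had 40 (18.3%). Over all second windows these percentages were 23.9%, 15.7% and 17.3%. Reads were present in all 3 libraries in 119 windows (54.3%, against 58.7% of all), and in only 1 library in 42 (19.2%, against 15.6%). Of the latter, white light alone had 14, 45 min alone 7 and 90 min alone 21. Over all second windows, 1720 had reads in only 1 library, with 577, 454 and 689 in the same order.

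Of the 160 windows with 20 reads in every library, 12 exceeded the first window in all 3 libraries (7.5%, against 8.4% over all second windows). Another 79 stayed below it in all 3 (49.4%, against 48.7%). In the remaining 69 (43.1%, against 42.1% over all second windows) the order of the windows depended on the library. The median range of the share over the 3 libraries was 32.8 percentage points, against 31.9 over all second windows.

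For each pair of libraries, shares were compared with Fisher's exact test (two-sided) on first- and second-window reads, with Benjamini-Hochberg adjustment over all windows of the table tested. A window was called where the adjusted p was below 0.05 and the share moved by 10 points or more. At 45 min against white light, 117 of the 170 windows tested were called (68.8%), against 68.1% of all second windows tested. The share rose in 66 of them and fell in 51, which is 38.8% and 30% of the windows tested. Over all windows, 34.6% rose and 33.5% fell. The median change was 0.58 points, and the median size of a change was 21.6 points, against 20.6 over all windows.

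At 90 min against white light, 134 of 174 windows were called (77.0%), against a background of 71.9%. A rise was called in 81 (46.6%, background 40.2%) and a fall in 53 (30.5%, background 31.7%). The median change was 8.26 points, against 3.37 over all windows. Between 90 and 45 min, 110 of 180 windows were called (61.1%), against 59.7%. Here 62 rose (34.4%, background 34.6%) and 48 fell (26.7%, background 25.2%), with a median change of 0. The windows near the start codon were thus called about as often as all second windows at 45 min and between the far-red libraries, and more often at 90 min against white light, and none of these differences from the background was tested. Both comparisons against white light share that library.

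**Figure D2:**
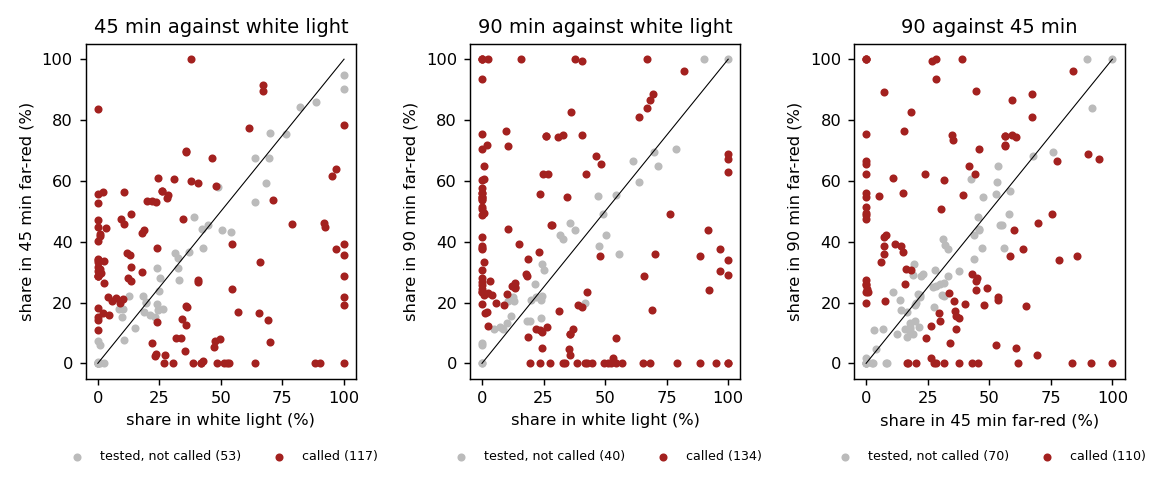
Share of the second window (percent of the reads of both windows) in one library against the other, one point per window near the start codon with at least 20 window reads in both libraries. Points on the line have equal shares; 117, 134 and 110 windows are called by Fisher's exact test in the panels from left to right, and many lie on the edges at 0 or 100%.

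The share of windows called varied with depth. With 50 to 99 window reads in the shallower library, 92.5% of 40 windows were called at 90 min against white light, compared with 79.6% of all windows at that depth. With 200 or more reads the values were 54.0% of 50 and 53.2%. At 45 min against white light the deepest windows were called in 67.9% of 53 cases, against 53.4% of all. In the windows with 50 to 99 reads the order was the other way, with 65.8% of 38 called against 74.5% of all.

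**Figure D3:**
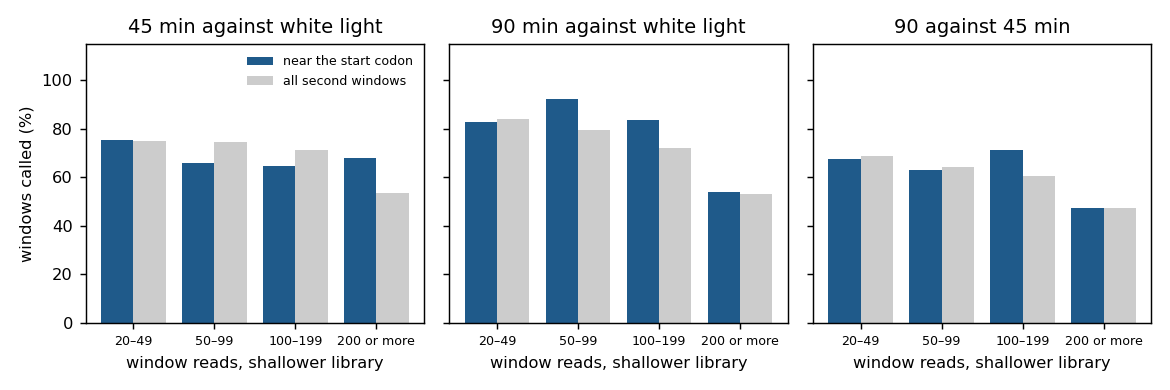
Percentage of windows called (vertical axis, from 0) by the number of window reads in the shallower library (horizontal axis), for windows near the start codon and for all second windows. The windows near the start codon lie above all windows in some depth bins and below in others, as at 45 min with 67.9% against 53.4% in the deepest bin and 65.8% against 74.5% at 50 to 99 reads.

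Read levels were described separately from shares. The median log2 ratio of second-window RPM, after adding 1 RPM, was 0 at 45 min against white light, and 0.31 at 90 min. Over all second windows these medians were 0 and 0.09. The 95% interval of the median at 90 min ran from 0 to 0.66. Such an interval describes the spread among windows of 2 libraries and not between replicates, and differences from all windows were not tested. With windows from 0.95 of the full length alone this median was 0, and with PPID windows kept it was 0.15. The first windows of the same transcripts had medians of -0.30 at 45 min (interval -0.47 to -0.08) and -0.09 at 90 min (-0.31 to 0.07). All first windows had -0.06 and -0.09. These are levels of reads, and the pseudocount understates the change of windows with few reads.

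The 10 windows with the most reads belonged to FAD2, PUP14, FLA16, OBP2 and 5 genes known only by their locus codes. FAD2, the desaturase of the endoplasmic reticulum that makes linoleate from oleate, had a window 112 bases into its coding sequence. In the order white light, 45 min and 90 min, as throughout, it held 1303, 1886 and 2269 reads, beside 1519, 903 and 1054 in the first window. The second window was therefore the smaller in white light and the larger in both far-red libraries. Its share rose from 46.2% (Wilson interval 44.3 to 48.0) to 67.6% (65.9 to 69.3) and 68.3% (66.7 to 69.8), with an adjusted p by Fisher's exact test of 1.91e-57 at 45 min and 1.28e-66 at 90 min. The whole desaturase domain was listed as left downstream (overlap 100), while the 112 bases lost were out of codon phase by 1 base. Where translation would begin was not determined.

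AT5G39590, which carries a TLD domain, lost 156 bases. Its second window held 378, 860 and 954 reads beside 185, 79 and 184 in the first. The share rose from 67.1% to 91.6% and 83.8% (adjusted p by Fisher's exact test 6.32e-31 and 6.20e-14), and the second window was the larger in every library. With all second windows in the denominator its rise at 90 min was 27.6 points in place of 16.7. AT4G33740 had windows 53 and 71 bases in, recorded under different isoforms, with nearly the same reads (281, 471 and 565 against 274, 456 and 565), so they are not independent. Its first window held 700, 381 and 673 reads, and the share of the window at 53 bases rose from 28.6% to 55.3% and 45.6% (Fisher's exact test, adjusted p 1.07e-29 and 1.12e-15).

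Other deep windows were called at 45 min but not at 90 min against white light. AT2G22795 (86 bases lost) rose from 37.8% to 60.1% and stood at 43.7% at 90 min, 5.89 points above white light and 16.4 points below 45 min (Fisher's exact test between the far-red libraries, adjusted p 2.49e-10). AT1G33250, with a Fringe-like domain and 10 bases lost, held 141, 841 and 600 reads beside 2833, 4468 and 4768, and its share rose from 4.74% to 15.8%, with 11.2% at 90 min, where neither the change against white light nor that against 45 min reached 10 points. AT5G21280 (35 bases lost) fell from 54.6% to 39.1% and was at 55.4% at 90 min, a rise of 16.2 points over 45 min (Fisher's exact test, adjusted p 7.32e-17), so the first window was the larger only at 45 min. In FLA16, a fasciclin-like arabinogalactan protein (104 bases lost), the shares of 10.1%, 17.7% and 13.4% differed by less than 10 points.

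**Figure D4:**
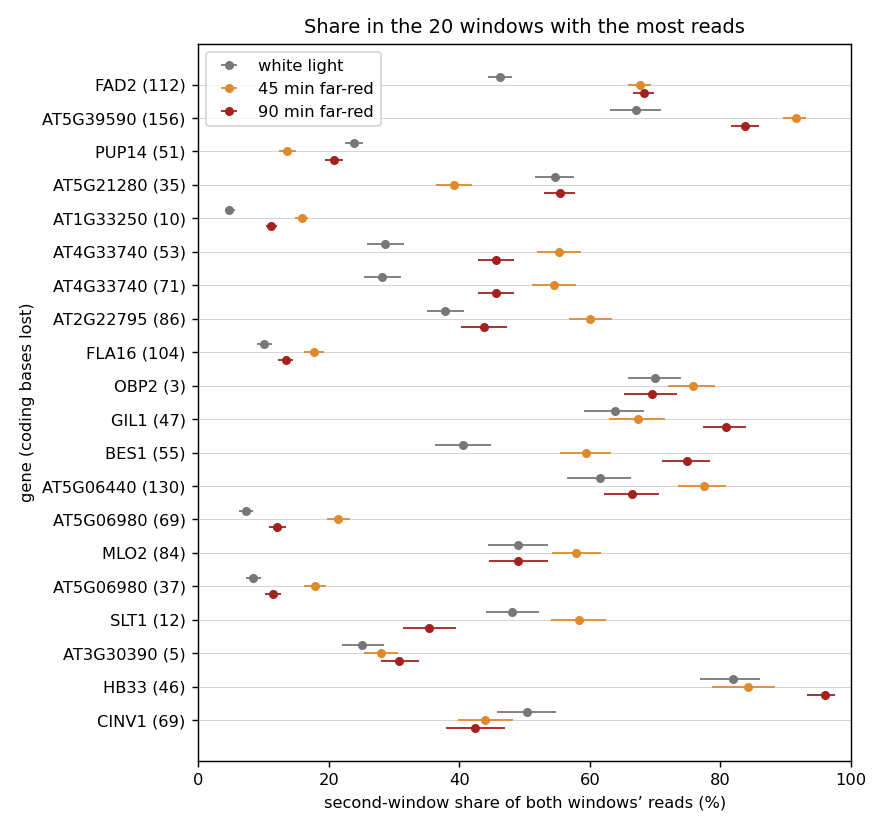
Share of the second window with its 95% Wilson interval (horizontal axis, percent) for each of the 3 libraries, in the 20 windows near the start codon with the most second-window reads. Coding bases lost are in brackets; FAD2 moves from 46.2% to 67.6% and 68.3%, while PUP14 is lowest at 45 min (13.6%).

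Transporters and carriers had 21 of the 219 windows. This and the following functional groups were put together by hand after the values were known, and serve only to order the genes. Of the 18 tested at 45 min against white light, 7 rose and 6 fell, with a median change of 1.73 points. Of the 18 tested at 90 min, 6 rose and 5 fell, with a median of 2.88. Over all second windows tested, 34.6% rose and 33.5% fell at 45 min (median change 0), and 40.2% rose and 31.7% fell at 90 min (median 3.37). These shares are the background for every group and word list that follows, and with so few windows tested nothing particular is read from a group's counts. PUP14, a purine permease that takes up cytokinin, lost 51 bases in phase. It held 914, 391 and 728 second-window reads beside 2920, 2484 and 2783, and its share fell from 23.8% to 13.6% (adjusted p by Fisher's exact test 4.11e-25) and was 20.7% at 90 min. KUP3, a potassium transporter (149 bases lost), had no second-window read among 124 in white light, which allows a share of up to 2.42%. It had 87 reads beside 107 at 45 min and 73 beside 188 at 90 min, so that the share rose to 44.8% and 28.0% (Fisher's exact test, adjusted p 1.60e-22 and 5.34e-14).

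UMAMIT33, of a family of amino acid exporters (53 bases lost), rose from 17.7% to 43.0% and 29.5%. UTR2, of the nucleotide sugar transporters (94 bases lost), rose from 10.6% to 45.7% and 44.3%. AAP4, an amino acid permease (61 bases lost), held 80, 78 and 26 reads beside 39, 9 and 0. Its share rose from 67.2% to 89.7% and 100%, where the absence of first-window reads allows up to 11.5% for that window. PHO1 (95 bases lost) held 37, 11 and 46 reads beside 113, 35 and 28. Its share was 24.7% and 23.9% in the first 2 libraries and rose to 62.2% at 90 min (Fisher's exact test, adjusted p 1.71e-07 against white light).

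The mitochondrial carriers went different ways. AT2G46320 (90 bases lost) had reads only at 90 min, where 69 of 126 window reads gave 54.8%. With 0 of 114 and 0 of 46 reads, shares of up to 2.63% and 6.52% remain possible in white light and at 45 min. MTM1 (54 bases lost) fell from 54.5% to 24.5% and 8.20%. AT2G30160 (72 bases lost) had shares of 19.7% and 20.3% and fell to 0 of 82 reads at 90 min, with a limit of 3.66%. BAC2, which carries basic amino acids (12 bases lost), had all of its 54 and 29 window reads in the second window in white light and at 90 min, and 9 of 23 at 45 min.

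Transcription regulators had 17 windows, of which 11 kept the codon phase, beside 39.7% of the 219 windows near the start codon and 34.9% of all second windows. In the other groups made by hand, 7 of 21 transporter, 5 of 12 light, clock and hormone, and 6 of 11 organelle windows did. So did 5 of 14 in RNA processing, 3 of 10 in glycosylation, 1 of 5 lipid and sugar and 1 of 7 cytoskeletal windows. No group was tested for phase. At 45 min 5 of 14 rose and 5 fell (median change 2.1 points, against 0 over all windows), and at 90 min 5 of 12 rose and 4 fell (median 7.94, against 3.37), with all windows at 34.6% up and 33.5% down, then 40.2% up and 31.7% down. OBP2, a Dof factor known for controlling glucosinolate synthesis, lost only 3 bases. Its second window, with 330, 413 and 332 reads beside 141, 132 and 146, was the larger in every library. The shares of 70.1%, 75.8% and 69.5% were not called, with a change of 5.72 points at 45 min (Fisher's exact test, adjusted p 0.0615). DAG1, another Dof factor, known from seed germination (67 bases lost), rose from 13.1% to 35.6% at 45 min and stood at 20.6% at 90 min.

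TCP3 and TCP10, which promote the differentiation of leaf cells, both kept the phase. TCP10 lost 9 bases and held 5, 43 and 53 reads beside 121, 155 and 183. Its share rose from 3.97% to 21.7% and 22.5% (Fisher's exact test, adjusted p 8.86e-06 and 3.18e-06). TCP3 lost 84 bases and rose from 34.6% to 47.5% and 54.7%. With the reads of its other second window added to the denominator, the change was 18.8 points at 45 min and 6.71 at 90 min. The change at 90 min was then no longer called. Between the far-red libraries, the change of 7.22 points, not called, became -12.1 points and was called. HB33, a zinc finger homeodomain protein (46 bases lost), had shares of 82.0% and 84.2% and rose to 96.0% at 90 min.

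Several regulators had no second-window read at 90 min. SUF4, a zinc finger protein needed for the expression of the flowering repressor FLC, lost 81 bases in phase. It held 39, 58 and 0 reads beside 2, 36 and 114, and its share fell from 95.1% to 61.7% and to 0, with a limit of 2.63% (Fisher's exact test, adjusted p 3.55e-33 at 90 min). Its fall at 45 min became a rise of 27.8 points when all second windows of the transcript were put in the denominator. HAM3, a GRAS protein of the shoot meristem (143 bases lost), had 86 of 206 reads in white light and none of 198 and 137 later, which allow 1.52% and 2.19%. EIL3, a regulator of the sulphur response (147 bases lost), had 46 of 88 reads in white light and none of 95 and 111, which allow 3.16% and 2.70%. FRS3, of the FHY3 and FAR1 family (190 bases lost), fell from 57.0% to 17.0% and to 0 of 106 reads, with a limit of 2.83%.

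Light, clock and hormone signalling was represented by 12 windows, some of them in the regulators above. Of the 11 tested at each time, 4 rose and 2 fell, with median changes of 3.53 points at 45 min and 4.80 at 90 min. BES1, the transcription factor at the end of brassinosteroid signalling, lost 55 bases. Its second window held 196, 350 and 395 reads beside 288, 239 and 132, so that the larger window changed between white light and far-red. The share rose from 40.5% to 59.4% and 75% (Fisher's exact test, adjusted p 2.49e-09 and 9.35e-28).

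GIL1, which is needed for hypocotyls to lose their upward orientation in red and far-red light (47 bases lost), held 272, 314 and 444 reads beside 154, 152 and 105. Its share was 63.8% and 67.4% and rose to 80.9% at 90 min (Fisher's exact test, adjusted p 7.14e-09). PAT1, a GRAS protein of phytochrome A signalling (24 bases lost), had shares of 24.2%, 19.4% and 32.6%, and no pair of libraries was called. AT3G23090 (WDL3), a microtubule-associated protein that lost 4 bases, rose from 18.1% to 30% and stood at 14.1% at 90 min.

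The clock-regulated genes AT3G12320 (LNK3) and AT5G06980 (LNK4) were both highest at 45 min. LNK3 (51 bases lost) held 30, 89 and 33 reads beside 224, 156 and 179, with shares of 11.8%, 36.3% and 15.6%. The rise at 45 min was called (Fisher's exact test, adjusted p 3.04e-10) and the change of 3.76 points at 90 min was not. LNK4 had windows 69 and 37 bases in under different isoforms. The window at 69 bases had shares of 7.30%, 21.4% and 12.1%, and that at 37 bases 8.41%, 17.9% and 11.4%.

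NINJA, the adaptor of the jasmonate repressors (7 bases lost), fell from 21.9% to 6.67% and 11.4%. JAZ3, a jasmonate repressor (85 bases lost), had second-window reads only at 90 min, 31 beside 101. With 0 of 24 and 0 of 67 reads, shares of up to 12.5% and 4.48% remain possible before. AXR1, part of the enzyme that activates the RUB modifier in auxin signalling (45 bases lost), held 1, 0 and 43 reads beside 40, 25 and 0. The reads of AXR1 thus lay almost wholly in the first window in white light and at 45 min, and wholly in the second at 90 min (Fisher's exact test, adjusted p 2.65e-22 against white light).

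Organelle proteins had 11 windows, with 4 of 8 tested rising and 2 falling at 45 min (median change 7.65 points), and 5 of 8 rising and 3 falling at 90 min (median 26.0). Over all windows 34.6% rose and 33.5% fell at 45 min (median 0), and 40.2% rose and 31.7% fell at 90 min (median 3.37). In Tic20-I, a component of the protein import channel of the chloroplast inner envelope (69 bases lost), the second window held 78, 285 and 198 reads beside 220, 219 and 67. Its share rose from 26.2% to 56.5% and 74.7% (Fisher's exact test, adjusted p 2.17e-16 and 2.95e-30). The neighbouring AT1G04945 has the same window reads in the table, so the gene of origin cannot be told apart. HCF243, needed for the stability of photosystem II (88 bases lost), held 16, 147 and 161 reads beside 258, 573 and 646 and rose from 5.84% to 20.4% and 20%.

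WTF1, which takes part in the splicing of chloroplast introns (111 bases lost), had none of 87 reads in white light, with a limit of 3.45%. It had 67 beside 75 at 45 min and 39 beside 64 at 90 min, and its share rose to 47.2% and 37.9% (Fisher's exact test, adjusted p 3.53e-17 and 4.19e-12). With all second windows in the denominator the rises of WTF1 were 29.9 and 18.4 points. RARE1, a pentatricopeptide repeat protein of chloroplast RNA editing (174 bases lost), held 0, 8 and 28 reads beside 58, 20 and 0. The limit of its share in white light was 5.17%. Its rise of 100 points at 90 min, the largest among windows called at both times in 1 direction, was 59.6 points with all second windows of the transcript in the denominator, below AT3G56930 and AT4G21720. The pentatricopeptide repeat gene emb2076 (40 bases lost) had shares of 88.5% and 85.8% and fell to 35.4% at 90 min. Second-window reads of RER1 (107 bases lost) made up 44.9% and 45.6% and fell to 0 of 149, with a limit of 2.01%.

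In RNA processing and transcription there were 14 windows of 11 genes, of which 5 were tested at 45 min (2 rose, 3 fell, median change -42.1 points) and 8 at 90 min (3 rose, 3 fell, median -0.69). IWS1, a transcription elongation factor (88 bases lost), rose from 24% to 37.8% and stood at 15% at 90 min, 8.96 points below white light. FIP1[V] fell from 47.3% to 5.22% at 45 min and was at 54.9% at 90 min. EMB1691, of the methyltransferases that modify mRNA, had windows 16 and 191 bases in, read against the same first window of 59, 34 and 41 reads. The window at 16 bases held 7, 44 and 103 reads and that at 191 bases 55, 0 and 78. At 45 min the share of the first of these rose by 45.8 points while that of the other fell by 48.2.

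Glycosylation and the endomembrane system had 10 windows, of which 8 were tested at 45 min (2 rose, 2 fell, median change 0.41 points) and 10 at 90 min (5 rose, 2 fell, median 8.36). GSL8, a callose synthase (126 bases lost), rose from 13.4% to 27.0% and 25.1%. STT3B, the catalytic subunit of the oligosaccharyltransferase (40 bases lost), had shares of 37.1% and 36.5% and fell to 11.3% at 90 min. ALG12, a mannosyltransferase of the N-glycan precursor (49 bases lost), held 61, 14 and 0 reads beside 62, 159 and 80 and fell from 49.6% to 8.09% and 0, with a limit of 3.75%. AT4G18230, with an Alg14-like domain (70 bases lost), held 0, 1 and 90 reads beside 193, 182 and 278 and rose to 24.5% at 90 min. Its limit in white light was 1.55%.

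Among enzymes of sugar metabolism, 3 neutral invertases had windows with unlike values. CINV1 (69 bases lost) had shares of 50.3%, 44.0% and 42.4%, with no change of 10 points. CINV2 (86 bases lost) held 28, 0 and 21 reads beside 3, 25 and 0, and A/N-InvB (161 bases lost) held 0, 14 and 15 beside 36, 85 and 24. The cytoskeletal genes included TRM3, TRM4 and TRM19, whose products recruit the TON1 protein to microtubules. TRM3 (26 bases lost) had shares of 21.4%, 16.0% and 26.2%, TRM19 (140 bases lost) had 43 of 84 reads in white light and none later, and TRM4 (136 bases lost) had none in white light.

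Of 160 windows tested against white light at both times, 75 were called at both in 1 direction, 45 upward and 30 downward, which is 46.9%, against 46.3% of all second windows. Both comparisons share the white light library, so this count is given only because the genes below were drawn from it. After RARE1, the largest rises at 90 min were in AT1G73650, with a DUF1295 annotation (5 bases lost), which held 0, 14 and 28 reads beside 47, 35 and 2, and in AT3G56930, a DHHC-type palmitoyltransferase (128 bases lost). AT3G56930 held 3, 137 and 120 reads beside 137, 106 and 47, and its share rose from 2.14% to 56.4% and 71.9% (Fisher's exact test, adjusted p 1.92e-30 and 7.69e-40). AT5G22450 (233 bases lost) held 2, 106 and 117 reads beside 201, 148 and 63, and AT4G21720 (28 bases lost) held 52, 32 and 21 beside 85, 0 and 0. The order depends on the denominator. With all second windows of the transcript in it, the rise at 90 min was 62.9 points in AT3G56930, 62.0 in AT4G21720, 36.0 in AT5G22450 (in place of 64.0) and 29.5 in AT1G73650 (in place of 93.3), and each was still called.

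After SUF4, the largest falls were in AT2G18876 (33 bases lost), with 38, 0 and 0 reads beside 5, 22 and 24, and in TBL16, of the family that acetylates cell wall polysaccharides (111 bases lost), with 41, 5 and 22 beside 0, 21 and 54. AT1G60995 (83 bases lost) held 59, 76 and 49 reads beside 5, 94 and 153, and its share fell from 92.2% to 44.7% and 24.3% (Fisher's exact test, adjusted p 1.69e-11 and 3.80e-22). AT3G56430, with a TIM21 domain (61 bases lost), held 28, 26 and 24 beside 1, 43 and 55. In AT1G60995 and AT3G56430 the first-window reads were lowest in white light, while the second-window reads ranged only from 49 to 76 and from 24 to 28. With all second windows in the denominator the order changed here too, and the largest fall at 90 min was that of AT1G60995, by 67.8 points. The change was then -46.5 points in TBL16 (in place of -71.1), -40.0 in AT2G18876 (in place of -88.4), -33.9 in SUF4 (in place of -95.1) and -32.4 in AT3G56430 (in place of -66.2), each still called.

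Among windows with at least 100 second-window reads, those with the fewest bases lost included OBP2 and AT3G23090, given above. AT1G64142, with a coding sequence of 63 bases, lost 2 and held 2, 120 and 107 reads beside 2, 143 and 115. Its 2 windows were thus near equal in both far-red libraries, at 45.6% and 48.2%, and white light had too few reads for a test. AT1G10590 lost 3 bases in an isoform in which it held 103, 37 and 26 reads, and another isoform placed a window with 103, 60 and 26 reads 33 bases in. The share of the window at 3 bases fell from 35.8% to 12.6% and 9.67%, or by 15.2 and 16.9 points with all second windows in the denominator. AT4G23770 (3 bases lost) had shares of 100%, 94.7% and 67.1%. AT3G30390, an amino acid transporter that lost 5 bases, held 171, 308 and 283 reads beside 511, 795 and 635, with shares of 25.1%, 27.9% and 30.8% that were not called.

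Matching words in the deposited annotation gave further lists, which overlap the groups above. Their counts stand against 34.6% up and 33.5% down of all windows at 45 min, and 40.2% up and 31.7% down at 90 min. The transcription factor words matched 15 windows, of which 6 kept the codon phase. Of these 15 windows, 3 rose and 7 fell among 13 tested at 45 min, and 6 rose and 8 fell among 14 at 90 min. The transporter words matched 20 windows, with 9 up and 5 down of 18 at 45 min and 7 up and 3 down of 16 at 90 min. The RNA-binding words matched 7 windows (3 up and 0 down of 4, then 4 up and 2 down of 6), and the ubiquitin words 6 (3 up and 1 down of 6, then 4 up and 2 down of 6). The repeat protein words matched 5 windows (1 up and 0 down of 3, then 1 up and 2 down of 3), and the cell wall and glycosyl words 3 (1 up and 1 down of 2, then 2 up and 1 down of 3). The translation words matched 2 windows, the photosynthesis and protein kinase words 1 each, and the heat shock and folding words 0.

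Among the genes these words matched, AT2G40920, with an F-box associated domain (80 bases lost), rose from 30.9% to 60.7% and 74.6%. AT4G31420, a C2H2 zinc finger protein (60 bases lost), rose from 0 of 29 reads (limit 10.3%) to 31.7% and 60.2%. AT4G04614, with the acidic domain of Spt5 (24 bases lost), rose from 35.7% to 69.4% and then stood at 2.70%, a fall against white light. AT1G09910, a rhamnogalacturonate lyase (73 bases lost), rose from 0 of 36 reads (limit 8.33%) to 33.3% and 37.7%. With all second windows in the denominator its change at 45 min was no longer called. The rise of AT4G31420 at 90 min was then 39.9 points in place of 60.2, that of AT4G04614 at 45 min 15.7 in place of 33.8, and the change of ABC1 at 45 min -43.1 points in place of -78.3. ABC1, an atypical kinase (117 bases lost), held 45, 10 and 0 reads beside 0, 36 and 3 and fell from 100% to 21.7% at 45 min. AT1G73180, with eIF2A domains (31 bases lost), had 31 of 103 and 13 of 50 reads in far-red and too few in white light.

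There were 11 genes with 2 windows near the start codon. In TRM4 both windows lost 136 bases and were told apart only by their reads (0, 13 and 22 against 0, 0 and 26). UFD1, which works in the degradation of proteins from the endoplasmic reticulum, had windows 36 and 95 bases in beside a first window of 207, 179 and 231 reads. The window at 36 bases held 5, 91 and 69 reads, and its share rose from 2.36% to 33.7% and 23.0% (Fisher's exact test, adjusted p 1.96e-19 and 5.05e-12). The window at 95 bases held 48, 36 and 22 reads and had shares of 18.8%, 16.7% and 8.70%, with a fall at 90 min. In 7 of the 11 genes the windows came from different isoforms, and in 6 of these 7 the second-window counts were equal in at least 1 library.

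Isoform annotation also set where a window lay. For 44 windows another isoform gave another number of bases lost, and for 15 of these another isoform placed the window further downstream than the rule allows. In 3 windows (1.37%, against 0.167% of the other second windows) the second window of an isoform was the first window of another isoform of the gene, with the same reads. The 3 windows were in BES1, PUP11 and AT5G06440. The coding sequence of the other isoform was shorter by 66 bases in BES1, where the window lay 55 bases in, by 36 in PUP11, with 43 bases lost, and by 222 in AT5G06440, with 130 lost. PUP11, a purine permease, held 181, 130 and 81 reads beside 0, 36 and 158, and its share fell from 100% to 78.3% and 33.9%. AT5G06440 rose from 61.5% to 77.4% at 45 min and stood at 66.5% at 90 min.

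Of the 218 windows whose gene has a position in RefSeq, 89 lie in a gene that overlaps another annotated gene. Whether counting used the strand is not given in the sources used here, so reads of these genes and of their neighbours cannot be told apart. PUP14, BES1 and GIL1 are among them, and FAD2 and OBP2 are not.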

How the data were processed

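PEAT libraries of 3 light conditions were analysed from 1 table, in which the authors deposited raw counts of reads per transcript, first window and second window. For all 219 windows, Fisher's exact test recomputed from the counts matched the deposited p-value within 1%. Fold changes in the deposited table (ratios of unscaled counts) were not used. Per the submitters' processing notes, FastQC, cutadapt, HISAT2 2.0.5, SAMtools 0.1.19 and bedtools 2.17.0 were used, with TAIR9 and TAIR10 named. The width of windows and the handling of duplicate reads are not given in the sources used here.

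Entries of a gene with the same second-window counts in all libraries were kept once. An entry that met the rule stood for them before one that did not, and then the entry with the most first-window reads. Entries with the PPID label had no such priority in the main setting. Shares were tested in pairs of libraries where both had at least 20 window reads (Fisher's exact test, SciPy 1.17.1, Benjamini-Hochberg over all windows tested), and the procedure was tested on simulated data. RPM are reads per 1000000 of the table total, with a pseudocount of 1 before log2. Wilson intervals and the limits set by 0 reads (3 reads of the total) account for counting error alone, since without molecular identifiers amplified copies cannot be told from separate molecules. Gene names came from RefSeq (TAIR10.1), which gave a symbol for 83 windows. No sequence was used here.

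Members and gene lists were chosen with earlier results of these data known. The text names the 10 windows with the most reads, the 5 largest rises and falls at 90 min among windows called at both times, the 5 windows with the fewest bases lost among those with at least 100 second-window reads, the 2 deepest windows of each list of annotation words, and the windows at the limits of the rule. Further genes were chosen after their values were seen.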

Additional observations from a re-analysis of the deposited data

How the results depend on the processing

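Of the values for the whole set of windows recomputed under the alternatives, 57 stayed within the interval of the reported median or share or, for counts, within the factor used as a limit, and 13 did not. That limit is wide. With a minimum change of 20 points, 88 of 170, 100 of 174 and 82 of 180 windows were called (51.8%, 57.5% and 45.6%). The median log2 level ratio at 90 min against white light, 0.31, was 0 with windows from 0.95 and 0.15 with PPID windows kept. With a minimum of 100 window reads, fewer windows were tested. Of these, 58 of 87 were called at 45 min, 58 of 87 at 90 min and 52 of 91 between the far-red libraries. The percentages called were 66.7%, 66.7% and 57.1%, beside 68.8%, 77.0% and 61.1% with the main setting, so that at 90 min the percentage was lower too. The median log2 level ratio of 90 against 45 min was then -0.0371. With remaining lengths from 0.95 of the full length, 113 windows were left. Of those tested, 56 of 86, 66 of 90 and 50 of 87 were called (65.1%, 73.3% and 57.5%). The median log2 level ratio at 45 min against white light was then -0.0223. With PPID windows kept there were 670 windows. Of those tested, 347 of 514, 387 of 521 and 342 of 558 were called (67.5%, 74.3% and 61.3%). Telling windows apart by first- and second-window reads, an alternative chosen after seeing the data, gave 234 windows. Of those tested, 129 of 182, 145 of 185 and 117 of 193 were called (70.9%, 78.4% and 60.6%). The share called over all second windows was not recomputed under these alternatives, so these percentages have no background beside them.

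All second windows of the transcript were entered in the denominator for the genes named by reads, change, bases lost or annotation words. Of the values for these genes, 99 stayed on their side of the threshold. Of these, 3 that were not called changed sign and 29 moved by over 1.5 times. SUF4 at 45 min reversed to a rise of 27.8 points (adjusted p by Fisher's exact test 0.000166), and the cause was not tested. TCP3 at 90 min (6.71 points) and AT1G09910 at 45 min (14.0 points) were no longer called. Between the far-red libraries, UFD1 (-8.31 points) and AT1G73650 (7.60 points) were no longer called, and 4 other values became called. One of these 4 changed sign: TCP3, at 7.22 points and not called in the main setting, was then called at -12.1 points. Genes outside this set, such as BES1, KUP3 and AXR1, were not recomputed with this denominator. Another second window was present in the transcript of 135 of the 219 windows near the start codon.

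No paired analysis was possible because each condition has 1 library, and leaving out a library was not run. The count of residues to the next methionine was not run, since no protein sequence was used here. Windows with few reads limit the precision. The word lists match spelling, and some hold genes of another function.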
